A study of Homo sapiens with 4 samples.

Results

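The MYC, MAX and MXD network is a set of transcription factors that share a basic helix-loop-helix leucine zipper domain, and it was examined here in rhabdomyosarcoma cells before and after selection for resistance to vincristine. Its members were taken by gene name from the deposited table. All 10 (MYC, MYCN, MYCL, MAX, MXD1, MXD3, MXD4, MXI1, MNT and MGA) were found among 18375 genes. RD is an established human cell line of fusion-negative rhabdomyosarcoma, a tumour of the skeletal muscle lineage, and both groups carry the genotype label WT. The parental group is untreated RD cells (2 libraries). The resistant group (2 libraries) came from RD cells first exposed to 1 to 1.5 nM vincristine, which killed about 80 to 90% of them, and then grown under doses raised by 10 to 20% at a time for 9 to 12 months. The half-maximal inhibitory concentration had then risen at least 100-fold. Vincristine is a tubulin-binding drug that stops cells in mitosis. Whether the replicates were separate cultures or selections, and whether drug was present at harvest, is not in the labels, so the spread behind the p-values is that between libraries and may be technical only.

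MYC, MYCN and MYCL bind DNA as heterodimers with MAX at the E-box, the sequence CACGTG, and activate transcription of genes for growth, ribosome synthesis and metabolism. The MXD proteins, MXI1 and MNT also need MAX as a partner, bind the same sequence and recruit SIN3 and histone deacetylases to repress it. MGA, which carries a T-box besides its zipper domain, pairs with MAX in a Polycomb complex. In muscle tumours MYC is linked to proliferation, and MYCN is known as an oncogene of the fusion-positive subtype and of neuroblastoma.

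Values are normalized counts, that is, the reads of a gene divided by a size factor of its library. Differences are log2 fold changes of resistant over parental cells after adding a pseudocount of 1. A gene is called when limma's adjusted p, with Benjamini-Hochberg adjustment over all 18330 tested genes, is below 0.05. The libraries held 58861281 to 67690557 reads over the genes of the table, and 66.9% of all tested genes were called (32.7% higher, 34.2% lower), so a call alone is the common outcome in this comparison. Of 10 muscle and rhabdomyosarcoma markers 8 were measured, and MYF5 and MYF6 were not. Of these 8, 7 were higher and MYOD1 was not called. MYOD1 had 16588 ± 491 normalized counts in parental and 15949 ± 1041 in resistant cells (SD, n = 2). It was called lower without resistant replicate 2 (-0.12). Of 15 markers of other cell types 7 were measured and none of these was at 0. Their summed level was 5766 and 5768 normalized counts in the parental and 15791 and 15934 in the resistant libraries, most of it the keratin gene KRT18, and its part in the results below was not tested. Fewer cells of a type and less RNA per cell cannot be told apart in these bulk libraries.

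The promoters of 9 of the 10 members were found in RefSeq windows on GRCh38.p14, each running from 250 bases before an annotated transcript start to 50 bases after it. MYC had no window, so its promoter was not searched. The E-box CACGTG, which reads the same on both strands, was searched in them, as was an E2F-type sequence spelled TTTCCCGC, TTTCGCGC, TTTGCCGC or TTTGGCGC on either strand. E-boxes were present in the windows of MXD4 and MNT, and the E2F-type sequence in those of MYCN and MGA, which is 2 of 9 genes for each. Counted the same way, per gene with any of its windows, 12.2% of 11471 tested genes held the E-box and 6.33% an E2F-type sequence. Of all 35116 windows, 7.26% held the E-box and 3.31% an E2F-type sequence. The stretches shown are the 250 bases before the start, with the matched letters in capitals. MYCN is shown because it had the largest difference of the network, and MXD4 and MNT because they alone, of the members with a window, held the network's own binding sequence.
MYCN, chr2:15940300-15940549, plus strand: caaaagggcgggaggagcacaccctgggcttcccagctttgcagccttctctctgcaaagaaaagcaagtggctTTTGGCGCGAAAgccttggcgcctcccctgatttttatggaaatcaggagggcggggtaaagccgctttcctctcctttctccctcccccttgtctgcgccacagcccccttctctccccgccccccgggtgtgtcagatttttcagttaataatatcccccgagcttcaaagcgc
MXD4, chr4:2262110-2262359, minus strand: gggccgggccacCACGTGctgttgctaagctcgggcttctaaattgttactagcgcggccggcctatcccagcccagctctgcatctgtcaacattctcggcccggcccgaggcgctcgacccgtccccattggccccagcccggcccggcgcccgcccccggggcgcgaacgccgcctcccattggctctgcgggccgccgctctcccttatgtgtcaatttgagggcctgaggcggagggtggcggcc
MNT, chr17:2401061-2401310, minus strand: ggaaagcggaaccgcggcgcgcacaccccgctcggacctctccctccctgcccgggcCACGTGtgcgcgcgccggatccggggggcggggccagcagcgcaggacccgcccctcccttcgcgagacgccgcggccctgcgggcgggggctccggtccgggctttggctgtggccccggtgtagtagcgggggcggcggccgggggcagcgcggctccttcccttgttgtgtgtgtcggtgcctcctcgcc
In MYCN the capitals are 2 matches that overlap, TTTGGCGC from base 176 before the start and GCGCGAAA, which is TTTCGCGC read on the other strand, from base 172. The E-box begins 238 bases before the start in MXD4 and 193 bases before it in MNT. These are matches of letters, not shown binding sites.

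All 10 members were called, 4 higher and 6 lower in resistant cells. At least 2-fold differences were limited to MYCN, higher, and MXD1, lower, against 8.96% of all tested genes called at least 2-fold higher and 6.57% at least 2-fold lower. The libraries of the groups did not overlap for any of the 10, which was also true of 82.1% of all tested genes. The median size of the difference, without regard to sign, was 0.41 on the log2 scale over the members and 0.36 over all tested genes. The direction split within every role that had several members. The activators gave 2 higher and 1 lower, and the 6 repressors, with MGA counted among them, gave 2 higher and 4 lower.

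**Figure D1:**
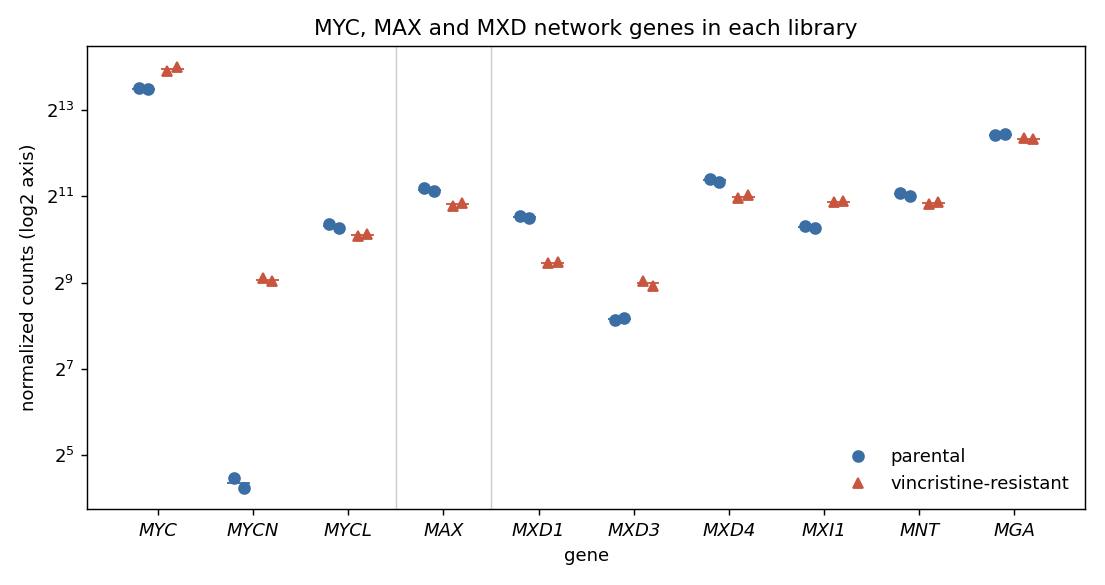
Normalized counts of each member in the 4 libraries, on a log2 axis. Circles are parental and triangles resistant libraries, short lines are group means, and vertical lines set the activators, MAX and the repressors apart. MYC rose from a mean of 11509 to 15716, MYCN from 20.6 to 536, and MXD1 fell from 1467 to 702.

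Among the activators, MYCN had the widest separation. Its parental libraries had 22.2 and 18.9 normalized counts (23 and 19 reads) and its resistant libraries 551 and 521 (509 and 546 reads). Both resistant libraries lay far above both parental ones, and MYCN was the least abundant member of the network in parental cells. After division by the size factors, the ratio of the summed reads of resistant to parental cells was 26.0, with an exact 95% binomial counting interval of 19.1 to 36.3 that covers counting error only. On the log2 scale the difference was 4.64 (SE 0.16, limma adjusted p = 3.25e-19), the 42nd highest of 18330 tested genes. MYCN shares 3.77% of its exonic bases with MYCNOS on the opposite strand, and the strand setting of the counting is not given in the sources used here.

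MYC, the most abundant member, had 11591 and 11427 normalized counts in parental and 15173 and 16258 in resistant cells. The resistant libraries were both higher, and they differed from each other by more than the parental pair did. The difference was 0.45 (SE 0.03, limma adjusted p = 2.62e-12), a 1.36-fold rise. MYCL, the family member first found in lung cancer, went the other way, with 1316 and 1234 normalized counts in parental and 1087 and 1115 in resistant libraries. Its difference of -0.21 (SE 0.06, limma adjusted p = 0.00196) was the smallest in the MYC family.

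MAX, the shared partner, was lower in resistant cells. Its libraries had 2338 and 2209 normalized counts in the parental and 1751 and 1832 in the resistant group, without overlap. The difference was -0.34 (SE 0.05, limma adjusted p = 4.72e-07).

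The repressors did not move together. MXD1, which rises during terminal differentiation of many cell types, fell the furthest, from 1499.5 and 1434 to 695 and 709 normalized counts. Both resistant libraries were below both parental ones, at 0.479 times the parental level, and the difference was -1.06 (SE 0.06, limma adjusted p = 8.18e-15). MXD4 fell from 2709 and 2563 to 1988 and 2076, a difference of -0.38 (SE 0.05, limma adjusted p = 5.24e-08).

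MXI1, also called MXD2, rose. It had 1262 and 1235 normalized counts in parental and 1856 and 1889 in resistant libraries, a difference of 0.58 (SE 0.05, limma adjusted p = 7.13e-11). MXD3, a repressor that is expressed in proliferating cells, had 280.4 and 289 against 523 and 486, a difference of 0.82 (SE 0.09, limma adjusted p = 7.46e-09). Its value is uncertain, because 22.5% of its exonic bases are shared with PRELID1 on the opposite strand and 18.0% with RAB24 on the same strand. PRELID1 was lower in resistant cells (-0.26, SE 0.04, limma adjusted p = 2.72e-06), a call lost above 1.2-fold and with edgeR's dispersion fixed at 0.01, and RAB24 was not called (0.08, SE 0.10, limma adjusted p = 0.463).

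MNT, a repressor present in both resting and growing cells, had 2166 and 2051 normalized counts in parental and 1798 and 1878 in resistant cells, a difference of -0.20 (SE 0.05, limma adjusted p = 0.000747). An antisense gene, AC006435.1, covers 12.2% of its exonic bases. MGA had 5454 and 5539 against 5186 and 5127, the smallest difference of the network, -0.09 (SE 0.04, limma adjusted p = 0.0234).

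The calls differed in how firm they were. MYC, MYCN, MXI1, MXD3, MXD1 and MXD4 were called under each of 18 settings of the test. MYCN passed the setting that kept genes with a mean of at least 100 normalized counts only through its resistant libraries. None of the settings bears on the exon overlap of MXD3. When a change above 1.2-fold was required, 37.1% of all tested genes passed, and MYCL, MAX, MNT and MGA did not (limma treat adjusted p = 0.127 for MAX and 1 for the other 3). With edgeR's dispersion set to 0.01, a guess at how far cultures would vary, 43.3% of all tested genes passed, and MYCL (edgeR adjusted p = 0.266), MNT (0.295) and MGA (0.657) lost their calls. On recovered reads, edgeR's quasi-likelihood test called all 10 members and 67.5% of all tested genes, and DESeq2 called 9 members and 56.7%. Without parental replicate 1, 3 members in place of 6 were called lower, and the values were -0.16 for MYCL, -0.16 for MNT and -0.10 for MGA. Without parental replicate 2, MGA alone lost its call (-0.08, limma adjusted p = 0.236). In the authors' deposited table, 9 of the members have an adjusted p below 0.05, against 56.6% of all its genes, and MGA has an adjusted p of 0.0613.

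**Figure D2:**
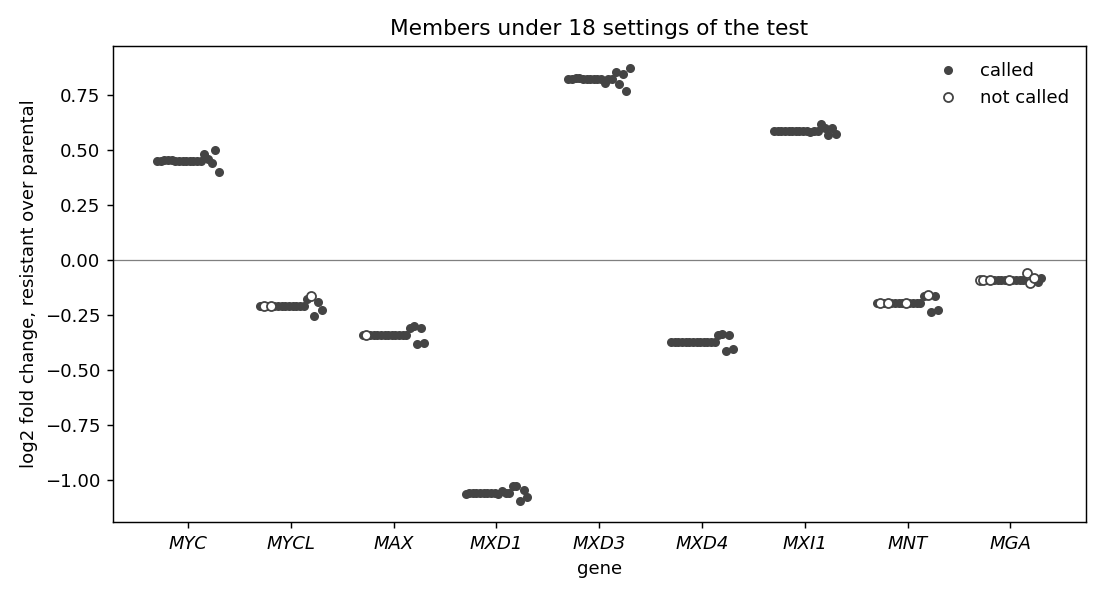
Log2 fold change of 9 members under 18 settings of the test, the main setting included. Filled points were called and open points were not. MYCN is left out for scale, and its values ran from 4.16 to 4.75. Direction was the same in every setting for all 10 members, though settings of filter, variance trend, threshold and replicate block cannot change it. Open points occur for MYCL, MAX, MNT and MGA.

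Levels were compared between genes as normalized counts per kilobase of merged exons, with the SD of 2 libraries. In parental cells MYC was far above the rest, at 3835 ± 38.7, followed by MAX (513 ± 20.6), MXD4 (373 ± 14.6), MGA (311 ± 3.43) and MXI1 (271 ± 4.14). MYCL (252 ± 11.5), MNT (242 ± 9.30) and MXD1 (231 ± 7.35) came next, and neighbours in that order overlapped between libraries. MXD3 (55.3 ± 1.22) and MYCN (7.90 ± 0.910) were the lowest. The median gene of the table had 198 per kilobase over the 4 libraries, so MYCN and MXD3 alone lay below the typical level in parental cells.

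In resistant cells MYC was again first (5237 ± 256). MXI1 (406 ± 5.10) and MAX (404 ± 12.9) overlapped, as did MGA (292 ± 2.39) and MXD4 (288 ± 8.84). MYCL (217 ± 3.82), MNT (211 ± 6.49) and MYCN (206 ± 8.05) formed a run in which neighbours overlapped, and MXD1 (111 ± 1.61) and MXD3 (97.8 ± 5.05) were lowest. Per kilobase of merged exons, MYCN could not be told from MNT in resistant cells and was the lowest of the 10 in parental cells. The order below MYC depends on the length used, in resistant cells down to the lowest ranks. Per kilobase of the longest transcript, an added choice made after seeing the data, MXI1 was the 7th of 10 in parental and the 3rd in resistant cells, against the 5th and the 2nd by merged exons. By that length the lowest means in resistant cells were those of MXD3 (221), MYCN (206) and MXD1 (126), and MNT (368) was the 5th of 10.

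The MYC family summed to 4131 and 4059 normalized counts per kilobase in parental and 5482 and 5838 in resistant libraries. MYC made up 93.5 and 93.8% of that sum in parental and 92.2 and 92.8% in resistant libraries. The share of MYCN was 0.207 and 0.179% in parental and 3.86 and 3.43% in resistant libraries, so that most of the rise in the sum was that of MYC itself. The 4 MXD and MXI1 genes with MNT summed to 1196 and 1148 in parental and 1101 and 1125 in resistant libraries, a small difference that hides opposite moves. Within that sum MXI1 went from 22.9 and 23.3% to 36.6 and 36.4%, and MXD1 from 19.7 and 19.7% to 9.93 and 9.92%.

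**Figure D3:**
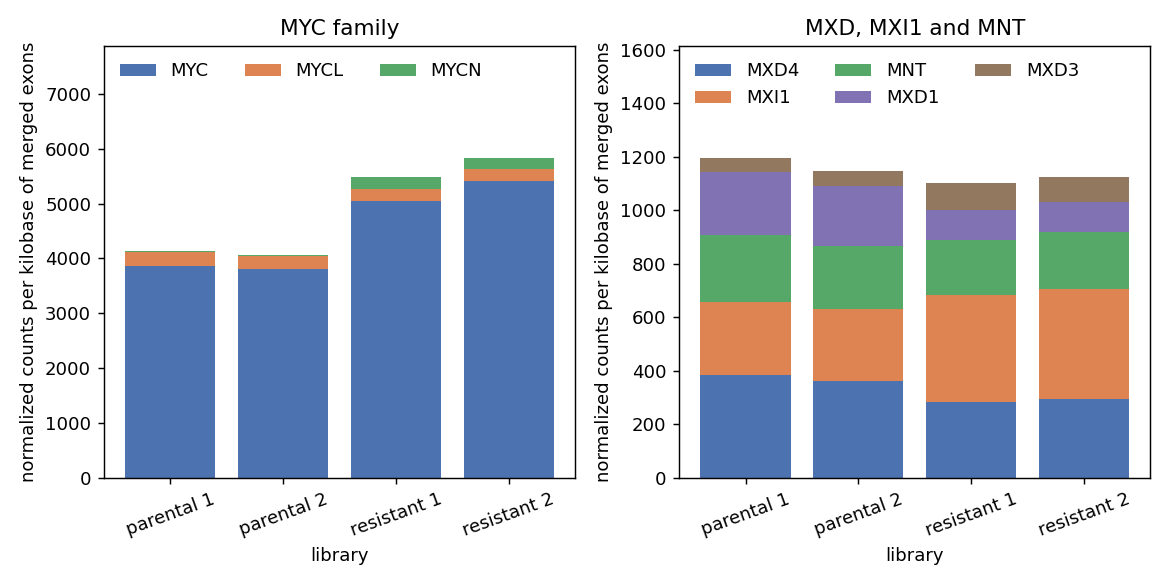
Normalized counts per kilobase of merged exons, stacked by gene, for the MYC family (left) and for MXD, MXI1 and MNT (right) in each library. The scales differ between the panels. The MYC family sum rose from a mean of 4095 to 5660, and the other sum was 1172 and 1113.

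The ratio of the MYC family sum to the sum of MXD, MXI1 and MNT was 3.45 and 3.54 in parental and 4.98 and 5.19 in resistant libraries. The ratio of MYC to MAX was 7.32 and 7.64 in parental and 12.8 and 13.1 in resistant libraries, which is 1.73 times as high. Both ratios were higher in each resistant library than in either parental library, and the size of the steps exceeded the spread within a group. With 2 libraries against 2, the smallest two-sided p an exact permutation test can give is 0.333, so no test of these ratios was made. With lengths of the longest transcript the ratios were 2.94 and 4.14 for the sums and 6.75 and 11.7 for MYC to MAX (group means, parental and resistant).

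In the GRCh38 assembly the 10 protein-coding genes lie on 9 chromosomes. The MYC family is spread over chromosome 8 (MYC, ENSG00000136997, 127735434 to 127741434), chromosome 2 (MYCN, ENSG00000134323, 15940564 to 15947007) and chromosome 1 (MYCL, ENSG00000116990, 39895426 to 39902256). MAX (ENSG00000125952) is on chromosome 14 from 65006174 to 65102695. The repressors are on chromosome 2 from 69897688 to 69942945 (MXD1, ENSG00000059728), chromosome 5 from 177301461 to 177312757 (MXD3, ENSG00000213347), chromosome 4 from 2247432 to 2262294 (MXD4, ENSG00000123933), chromosome 10 from 110207605 to 110287365 (MXI1, ENSG00000119950), chromosome 17 from 2384060 to 2401118 (MNT, ENSG00000070444) and chromosome 15 from 41621224 to 41773081 (MGA, ENSG00000174197).

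To set each difference against its chromosomal surroundings, each member was placed beside the 10 tested genes on either side of it. The window was set by a number of genes, so its reach differed. The farthest neighbour began at -6086 kb from the start of MXI1 and at -759 kb from that of MXD3. Of all tested genes 32.7% were called higher and 34.2% lower. MYCN lay above all 20 of its neighbours, whose median was -0.03. The genes nearest to it, named after their values were seen, were DDX1 (0.01), which is often amplified together with MYCN in tumours, NBAS (-0.12) and FAM49A (1.17). MXD3 also lay above all 20 neighbours (median -0.15), of which 3 were called higher and 10 lower. MXD1 lay below 17 of 20 (median -0.24), but most of its neighbours were lower too, with 13 of 20 called lower and 2 higher. SNRNP27, named after its value was seen, shares 3.73% of the exonic bases of MXD1 on the same strand and was lower (-0.46).

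MXI1 and MXD4 differed little from their surroundings. The neighbours of MXI1 had a median of 0.54, with 15 of 20 called higher, beside 0.58 for MXI1 itself. Those of MXD4 had a median of -0.30, with 15 of 20 called lower, beside -0.38 for MXD4. The neighbours of MYC had a median of 0.36, with 12 of 20 called higher, beside 0.45 for MYC. That median was 0.43 over 5 genes and 0.20 over 20 genes on each side. The nearest of them, the long noncoding RNA gene PVT1, named after its value was seen, was lower (-0.24, SE 0.07, limma adjusted p = 0.00224), and did not pass above 1.2-fold. MAX, MNT and MGA were lower while the medians around them were above 0 (0.19, 0.10 and 0.28). The median around MYCL was -0.02, and its sign turned to 0.14 over 5 genes on each side. What the shift of a block contributes to a member's difference was not tested.

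**Figure D4:**
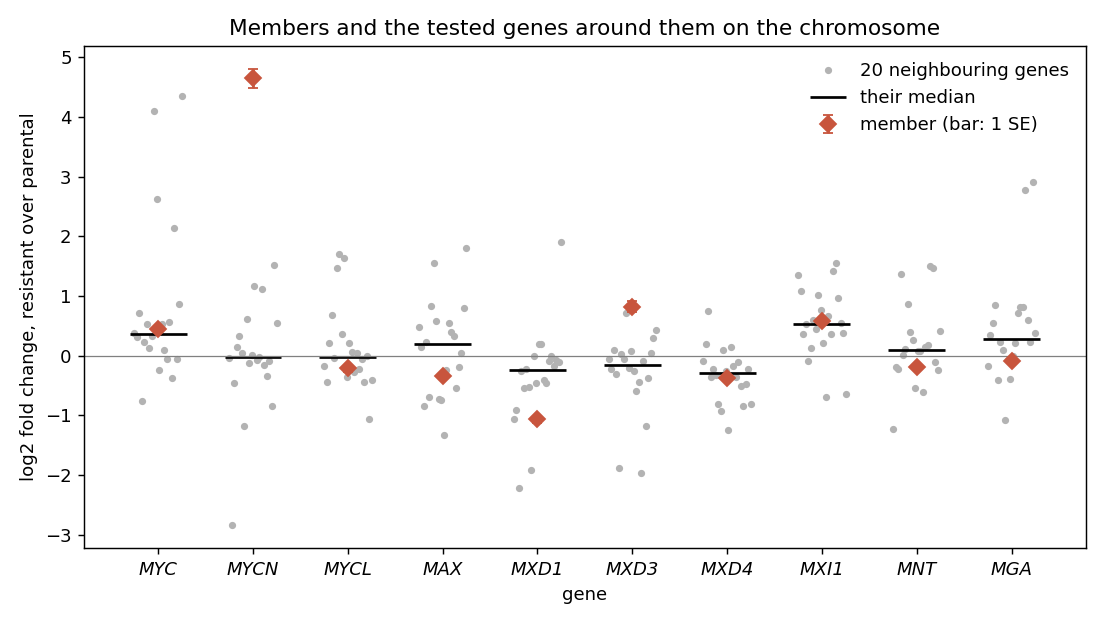
Log2 fold change of each member (diamond, bar 1 SE) and of the 10 tested genes on each side of it on the chromosome (grey points, in chromosomal order), with their median as a line. MYCN and MXD3 lie above every neighbour, and MXI1 and MXD4 lie close to the line.

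The genes whose profile over the 4 libraries was nearest to that of a member were found by Euclidean distance of log2 values. Each gene was centred on its mean. The candidates were 12897 genes with a symbol and a mean of at least 100 normalized counts. Nearest to MYC were CAPN15 (distance 0.013, log2 fold change 0.46), NDUFA12 (0.014, 0.45) and GCFC2 (0.014, 0.45). Nearest to MYCN were LHFPL1 (0.158, 4.68), RGS4 (0.170, 4.52) and ZIM2-AS1 (0.182, 4.75). LHFPL1 and ZIM2-AS1, like MYCN, reached that mean only through the resistant libraries. With 4 libraries in 2 groups, such a distance reflects mainly an equal difference between the groups.

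Genes that work with the network, in 8 lists, moved in both directions. Their counts stand beside 32.7% of all tested genes called higher and 34.2% called lower. The MLX arm is a sister network in which MLX pairs with the glucose sensors MondoA (MLXIP) and ChREBP (MLXIPL). Of its 4 tested genes 2 were higher and 1 lower. MLXIP had 5433 and 5610 normalized counts in parental and 9793 and 9774 in resistant libraries, a difference of 0.83 (SE 0.03). MLX fell by 0.42 (SE 0.04) on the log2 scale, and shares 18.1% of its exonic bases with PSMC3IP on the opposite strand. MLXIPL was higher (1.45, SE 0.41) at a low level of 6.77 to 40.0 normalized counts. Its difference was 0.89 without parental replicate 1, and its call was lost without resistant replicate 1 (1.06, limma adjusted p = 0.0692) and without the intensity trend (limma adjusted p = 0.101). ARRDC4, a target of the arm, was not called (-0.07, SE 0.11).

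The SIN3 corepressor, through which MXD proteins and MNT act, had 5 genes higher and 11 lower of 17, with a median of -0.24 against 0.0043 over all tested genes. Above 1.2-fold, and also at the fixed dispersion, 1 was higher and 5 lower. Of all tested genes, 37.1% and 43.3% passed in these settings, in either direction. The genes with the smallest adjusted p were all lower, and all 4 are subunits of the complex. ING1 fell from 2344 and 2295 to 992 and 937 (-1.27, SE 0.05), and the log2 fold changes were -0.87 (SE 0.06) for SAP30, -0.75 (SE 0.03) for SAP18 and -0.42 (SE 0.04) for SIN3B. SIN3A, the paralog of SIN3B, named after its value was seen, was higher (0.24, SE 0.04), a call lost in both of those settings. The Polycomb complex of MGA had 6 higher and 4 lower of 13 (median 0.07), and 1 higher and 1 lower in both of those settings. Without parental replicate 1, 3 were higher, without parental replicate 2, 3 were higher and 2 lower, and without the intensity trend, 2 were higher and 1 lower. TFDP1, the E2F partner, was lower (-0.96, SE 0.03), PCGF6 was higher (0.79, SE 0.05), CBX3, a heterochromatin protein, was higher (0.29, SE 0.03), and the ubiquitin ligase RNF2 was lower (-0.24, SE 0.05). CBX3 and RNF2 passed neither above 1.2-fold nor at the fixed dispersion.

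Of 17 coactivators and partners of MYC, 5 were higher and 9 lower (median -0.10), and 2 and 5 above 1.2-fold or at the fixed dispersion. The acetyltransferase KAT2A went from 1832 and 1827 to 3866 and 3860 normalized counts (1.08, SE 0.04), and EP400, of the TIP60 complex, was higher by 0.54 (SE 0.04). BPTF, a nucleosome remodelling factor, was lower (-0.88, SE 0.03), as was the helicase RUVBL2 (-0.48, SE 0.03). KAT2A shares 10.7% of its exonic bases with a gene on the same strand.

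Among 20 genes that control the stability of MYC protein, 9 were higher and 10 lower (median -0.10), and 3 and 4 above 1.2-fold. The deubiquitinase USP36, which protects MYC from degradation, fell from 13911 and 13612 to 4485 and 4613 normalized counts (-1.60, SE 0.03). SKP2, a ubiquitin ligase subunit that targets MYC, rose from 8793 and 8684 to 18715 and 17877 (1.07, SE 0.03), and BTRC, of another ligase, was higher (0.52, SE 0.04). The ligase gene FBXO32 was lower (-0.99, SE 0.08). FBXW7, the best known ligase subunit of MYC, named after its value was seen, had a difference of -0.18 (SE 0.06, limma adjusted p = 0.0103), which did not pass without parental replicate 1 (limma adjusted p = 0.0824) or parental replicate 2 (limma adjusted p = 0.0731).

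Of 13 factors that act on the MYC gene or its mRNA, 4 were higher and 6 lower (median -0.06), none of them by 2-fold. Above 1.2-fold, and likewise at the fixed dispersion of 0.01, 2 were higher and 0 lower, and the calls of PUF60 and ELAVL1 were lost in both settings. Without the intensity trend 3 were lower. FUBP1, which binds upstream of the MYC promoter, was higher (0.50, SE 0.03), and its repressor partner PUF60 was lower (-0.32, SE 0.03). IGF2BP1, which stabilizes MYC mRNA, was higher (0.37, SE 0.03), and the RNA-binding protein gene ELAVL1 was lower (-0.26, SE 0.03).

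**Figure D5:**
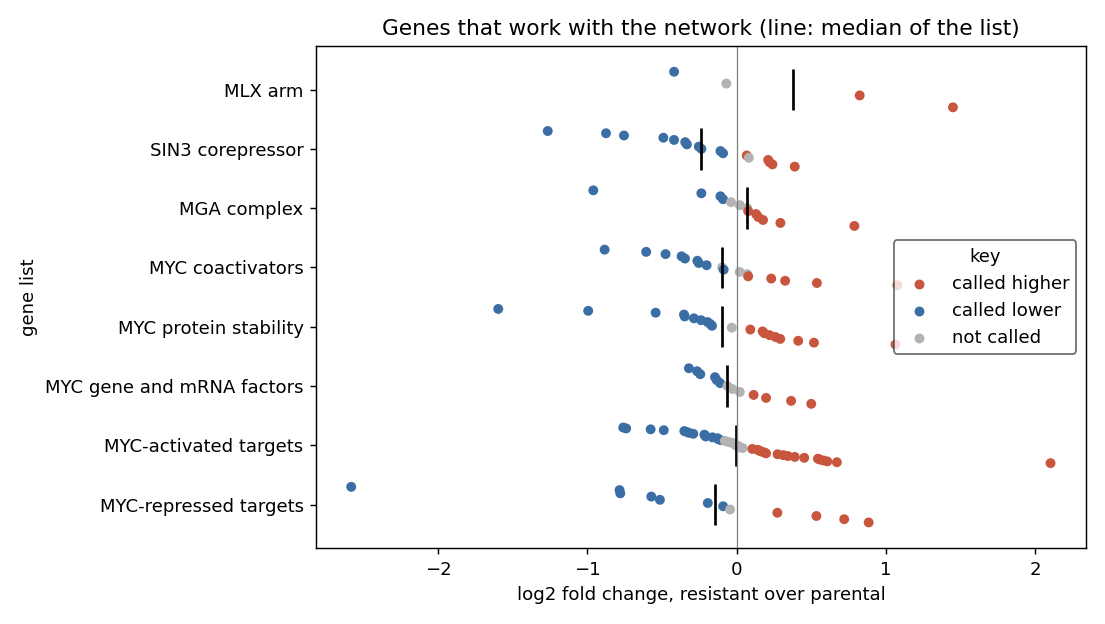
Log2 fold change of the tested genes in the 8 lists, red when called higher, blue when called lower and grey when not called, with the median of each list as a vertical line. The medians run from -0.24 (SIN3 corepressor) to 0.38 (MLX arm), and 6 of the 8 lie below 0.

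Among 41 genes that MYC is known to activate, 17 were higher and 15 lower, with a median of -0.0041 beside 0.0043 over all tested genes. Above 1.2-fold, or at the fixed dispersion, 9 were higher and 5 lower. CCND2, the gene of cyclin D2, rose from 3816 and 3704 to 16257 and 16088 normalized counts (2.10, SE 0.03), and shares 13.8% of its exonic bases with a gene on the same strand. The peroxiredoxin gene PRDX3 was higher by 0.67 (SE 0.03), NOLC1, of the nucleolus, by 0.58 (SE 0.03), and the amino acid transporter gene SLC7A5 was lower (-0.76, SE 0.03). Of 36 such genes with a promoter window, 19 (52.8%) held the E-box, against 12.2% of 11471 tested genes with a window. The median difference of the 19 was -0.06 and that of the other 17 was 0.04. Over all tested genes with a window it was -0.02 with and -0.01 without the E-box.

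Of 12 genes that MYC is known to repress, 4 were higher and 7 lower (median -0.14). CDKN1A, the gene of the cell cycle inhibitor p21 and 1 of the proteins of the study's title, had 3408 and 3383 normalized counts in parental and 6153 and 6399 in resistant cells (0.89, SE 0.04). The matrix protein gene THBS1 fell from 6979 and 6590 to 1157 and 1107 (-2.58, SE 0.04), the integrin gene ITGB1 was lower (-0.78, SE 0.03), and so was the stress gene GADD45A (-0.78, SE 0.04). Every gene of these lists that is given a direction here had a limma adjusted p below the threshold.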

How the data were processed

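Poly(A)-selected RNA was sequenced in 4 libraries, grouped by sample titles. Per the submitters' processing notes the authors used bcl2fastq 2.17, STAR 2.5.2b, featureCounts of Subread 1.5.2 and DESeq2 on GRCh38, while for the annotation and strand the sources used here give nothing. The deposited library columns are a signal of normalized counts, gene counts divided by 1 size factor per library, and 100% of the values were whole multiples of 1 step within 0.01, so whole reads were recovered. The log2 and p-value columns are the authors' comparison, per the file headers.

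Genes with at least 10 in 2 or more libraries (18330 of 18375) were fitted with limma 3.58.1 (lmFit, eBayes with intensity trend, group alone) on log2 of the value plus 1. The fit was checked on counts simulated with the spread between these libraries, which does not cover a wider spread between cultures. Only a small part of the genes was changed in that simulation, whereas 66.9% were called here. It therefore does not show how the fit behaves when most genes differ. Alternatives used edgeR 4.0.16 and DESeq2 1.42.0 on recovered reads. Lengths and positions came from GENCODE 29, which holds 96.9% of the identifiers, and promoters from RefSeq. The members and lists were chosen with earlier results of these data known. Named were all members, the 4 genes of each list (or fewer) lowest in adjusted p, the 3 nearest profiles to MYC and to MYCN, and genes marked as named after their values were seen.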

Additional observations from a re-analysis of the deposited data

How the results depend on the processing

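All 10 members kept their direction and the 4 higher calls held under the 17 alternatives, which changed the pseudocount, filter, variance trend, scaling, tool, threshold, replicate block and libraries. The settings of filter, variance trend, threshold and replicate block leave the fold change as it is, so they bear on the calls alone. MYCN passed the filter at a mean of 100 only through its resistant libraries. The 6 lower calls became 2 when a change above 1.2-fold was required and 3 with the dispersion fixed at 0.01, and ranged from 3 to 6 when 1 library was left out, with the lone library of a group then assumed to vary like the other group. Without parental replicate 1 the lower calls were 3, without parental replicate 2 they were 5. MGA (adjusted p = 0.116) and MNT (adjusted p = 0.0505) also lost their calls in limma without the intensity trend, and MGA under DESeq2 (DESeq2 adjusted p = 0.0619) and after scaling to the same total (limma adjusted p = 0.146). Over all tested genes, 3380 higher and 3414 lower passed above 1.2-fold, in place of 6001 and 6270, and with the dispersion fixed at 0.01 3880 were lower. With the replicate block, 4 members were higher and 6 lower and 12144 genes were called in all, against 12271. The correlation of deviations between same-numbered libraries was -0.0040, so no pairing by replicate number was seen. Whether same-numbered libraries shared a preparation was not tested. Of 158 other genes checked, 132 were called, no call turned to the opposite direction, and 67 and 65 lost their calls above 1.2-fold and at the fixed dispersion. Some genes that were not called changed sign between settings, as MYOD1 did (-0.12 to 0.0087). The chromosomal medians depend on the window, from 0.06 to 0.37 around MAX. Depth limits MYCN most, with 42 reads in parental cells.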
